A study of Homo sapiens with 12 samples.

Results

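A set of 10 genes of the antioxidant and iron storage programme, NQO1, FTL, FTH1, SQSTM1, HMOX1, GCLM, GCLC, TXNRD1, SRXN1 and SLC7A11, was described across 4 groups of LM2 cells. They were chosen by name with earlier values of the same libraries known, and selected on a question about the 4 group means: whether the ZRANB1 siRNA mean lay outside the range between the scramble siRNA and EZH2 shRNA means. All 10 were in the table of 26006 rows, and all 10 were among the 11929 genes that averaged 1 FPKM or more and were tested. Because these means were used in the choice, the levels of the 10 genes and their differences are given as a description with no test.

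LM2 is a lung-seeking subline of MDA-MB-231, a breast cancer line of human origin, and it was the only cell line used. The 12 RNA libraries formed 4 groups of 3: cells transfected with ZRANB1 siRNA, cells transfected with scramble siRNA, cells transduced with EZH2 shRNA and cells transduced with scramble shRNA. ZRANB1 is a deubiquitinase, and EZH2 is the histone H3 lysine 27 methyltransferase of Polycomb repressive complex 2. ZRANB1 siRNA and EZH2 shRNA cells differed in both target and delivery method, so these cannot be told apart where those groups are compared. Delivery method likewise cannot be told apart from any difference in culture, time or batch between the siRNA and shRNA groups. The sources used here do not give the siRNA or shRNA sequences, the number of clones or the time after delivery, nor do they say that libraries of a group were separate cultures, so p-values reflect no more than sample-to-sample spread, part or all of which may be technical.

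NRF2, encoded by NFE2L2, is a transcription factor that KEAP1 marks for degradation in unstressed cells. Oxidants and electrophiles modify KEAP1, and NRF2 then joins small MAF proteins at antioxidant response elements, where BACH1 competes with it. Its targets make glutathione, reduce thioredoxin and quinones, break down haem and store iron. Ferritin, the iron store, is a shell of heavy chains (FTH1), which oxidise iron, and light chains (FTL), which help to deposit it. Ferritin is also controlled at translation, since iron regulatory proteins bind an iron-responsive element in the leader of its messenger RNAs when iron is low, so a transcript level is not a protein level.

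In each row the 3 values of a group were sorted as text strings, in 100% of rows with 3 different values, so no value could be traced to a library, and values are given below from low to high. Sequencing depth was unknown, because the table held no counts. A level is an average over cells, so fewer expressing cells and less RNA per cell cannot be told apart. EZH2 transcript stood at 16.5 ± 0.681 FPKM with EZH2 shRNA and at 35.4 ± 1.07 FPKM with scramble shRNA (SD, n = 3 each). It was also lower with ZRANB1 siRNA, at 30.4 ± 2.08 FPKM, than with scramble siRNA, at 48.6 ± 2.1 FPKM (adjusted p = 5.43e-05 by limma). ZRANB1 transcript stood at 10.0 ± 1.31 FPKM where libraries carried the ZRANB1 siRNA label and at 11.4 ± 0.795 FPKM with scramble siRNA, with an adjusted p of 0.349 by limma, so a lower level of the target was not shown. The line markers VIM, CD44, AXL and CAV1 were all above 100 FPKM in every group, as group means. Of 7 luminal breast markers, 4 reached 1 FPKM in every group (KRT8, KRT18, ERBB2 and GATA3), with KRT18 at 247 to 353 FPKM, while the hormone receptors ESR1 and PGR were at most 0.0131 FPKM.

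The regions before the transcription start are shown for 5 of the genes: the 3 with all ZRANB1 siRNA values above the range (NQO1, FTL and SQSTM1), and GCLM and TXNRD1, which were picked because they hold the motif searched. They are RefSeq sequences of build GRCh38.p14, 250 bases each, read 5′ to 3′ on the gene's strand; 7 of the 10 genes were matched in that table. Capitals mark the core of the antioxidant response element, TGACNNNGC, on either strand. The FTL leader stretch of 30 bases lies within the transcript, and its capitals mark CAGTG, the letters of the loop of an iron-responsive element.
NQO1, chr16:69726561-69726810, minus strand: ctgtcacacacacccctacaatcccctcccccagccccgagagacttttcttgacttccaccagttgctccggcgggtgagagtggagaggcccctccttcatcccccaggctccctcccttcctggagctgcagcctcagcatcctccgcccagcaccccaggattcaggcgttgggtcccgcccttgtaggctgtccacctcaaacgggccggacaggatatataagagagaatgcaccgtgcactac
FTL, chr19:48965059-48965308, plus strand: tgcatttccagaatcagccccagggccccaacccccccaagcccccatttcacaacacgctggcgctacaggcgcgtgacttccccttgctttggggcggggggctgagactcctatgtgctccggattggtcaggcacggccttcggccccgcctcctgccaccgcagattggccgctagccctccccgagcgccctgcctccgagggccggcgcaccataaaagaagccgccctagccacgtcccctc
SQSTM1, the third listed start, chr5:179820655-179820904, plus strand: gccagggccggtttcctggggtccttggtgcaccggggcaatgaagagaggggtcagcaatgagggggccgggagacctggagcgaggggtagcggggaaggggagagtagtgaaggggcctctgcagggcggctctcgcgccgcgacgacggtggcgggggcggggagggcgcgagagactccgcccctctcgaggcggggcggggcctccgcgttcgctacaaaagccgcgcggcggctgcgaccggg
GCLM, chr1:93909431-93909680, minus strand: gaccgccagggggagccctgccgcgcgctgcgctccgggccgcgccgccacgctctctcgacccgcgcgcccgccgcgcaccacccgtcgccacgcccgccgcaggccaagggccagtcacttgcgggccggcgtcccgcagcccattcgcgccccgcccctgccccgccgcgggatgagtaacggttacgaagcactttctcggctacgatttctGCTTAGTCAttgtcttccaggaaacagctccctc
TXNRD1, the second listed start, chr12:104286782-104287031, plus strand: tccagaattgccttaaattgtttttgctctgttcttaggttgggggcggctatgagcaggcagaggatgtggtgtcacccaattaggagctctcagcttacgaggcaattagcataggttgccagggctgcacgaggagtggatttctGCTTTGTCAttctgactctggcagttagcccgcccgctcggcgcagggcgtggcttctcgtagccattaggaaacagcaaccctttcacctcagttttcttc
FTL leader, chr19:48965329-48965358, plus strand: gtctgtctcttgcttcaaCAGTGtttggac

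The core letters were found in 2 of the 7 matched genes, GCLM and TXNRD1, in windows of 250 bases before to 50 bases after the start. In GCLM they covered positions -34 to -26 and in the TXNRD1 start shown -102 to -94, counted from the start, both on the opposite strand. The other listed TXNRD1 start held them as well. The windows of NQO1, FTL, SQSTM1 (all 3 listed starts), GCLC and SRXN1 held none; GCLC and SRXN1, like GCLM and TXNRD1, overlapped scramble siRNA with ZRANB1 siRNA, so genes that overlapped were found both with and without the letters. Of 35116 RefSeq windows of the same length, 13.35% held these letters. That share is per window, whereas 2 of 7 is per gene. By window, of the 10 that the 7 genes had, the GCLM window and both TXNRD1 windows held the letters. FTH1, HMOX1 and SLC7A11 were not matched and so were not searched. CAGTG was in the transcribed 50 bases of FTL at positions 39 to 43, and 6.48% of windows had it there on the sense strand. These matches are letters in a window, and binding was not measured. Sequence beyond the window was not searched, so a gene without the letters here may hold them further away.

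NQO1, FTL and SQSTM1 were the 3 genes whose ZRANB1 siRNA values all lay above every scramble siRNA and EZH2 shRNA value. FTH1 was higher with ZRANB1 siRNA than with scramble siRNA but lay level with EZH2 shRNA. The glutathione, thioredoxin and haem genes did not follow: GCLM, GCLC, TXNRD1, SRXN1, HMOX1 and SLC7A11 overlapped the scramble siRNA values with ZRANB1 siRNA. By means alone, 6 of 10 genes were above both other groups, 0 were below both and 4 lay within the range, against 11.6% of all tested genes with a mean above both. By all 3 values, 3 of 10 were above, against 0.662% of all tested genes. The nearest to the edge were TXNRD1, GCLM and FTH1 just outside, at 1.003, 1.045 and 1.026 times the higher of the other means, and GCLC just inside, at 8.51 FPKM with ZRANB1 siRNA beside 8.22 FPKM with scramble siRNA and 8.69 FPKM with EZH2 shRNA. Since the genes were chosen with these means known, nothing is read from these counts.

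**Figure D1:**
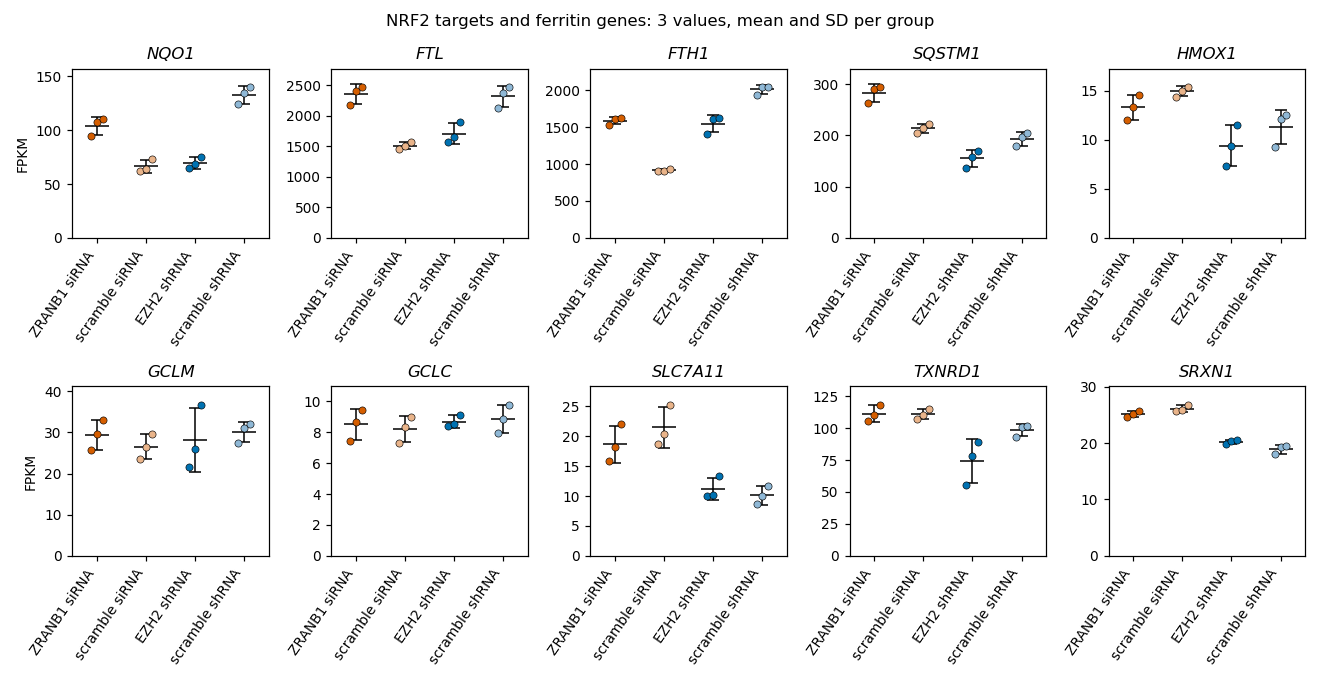
FPKM (vertical axes, from 0) of the 10 genes in the 4 groups; points are the 3 values of a group, long dashes the mean and error bars the SD. NQO1, FTL and SQSTM1 stand higher with ZRANB1 siRNA than with scramble siRNA and EZH2 shRNA, whereas FTH1 with ZRANB1 siRNA is level with EZH2 shRNA.

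NQO1 encodes the quinone reductase that is the most used reporter of NRF2 activity. Its values were 94.7, 108 and 110.1 FPKM with ZRANB1 siRNA, against 62.4, 63.5 and 73.2 FPKM with scramble siRNA. With EZH2 shRNA they were 64.6, 69.0 and 75.0 FPKM, against 124, 134 and 140.4 FPKM with scramble shRNA. The ZRANB1 siRNA values thus stood between the scramble shRNA values above and those of both other groups below, with no overlap on either side. The ratio of means was 1.57 for ZRANB1 siRNA against scramble siRNA, and the log2 difference was 0.64 ± 0.090 (SE, on log2(FPKM + 1), as all differences below). EZH2 shRNA stood at 0.523 times the scramble shRNA level, a log2 difference of -0.93. Scramble siRNA itself was at 0.50 times the scramble shRNA level.

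FTL, the ferritin light chain, was among the most abundant transcripts, at rank 18 of the tested genes by mean FPKM. It was listed at 2172, 2413 and 2477 FPKM with ZRANB1 siRNA, against 1454, 1509.6 and 1573 FPKM with scramble siRNA. The EZH2 shRNA values were 1567, 1659.9 and 1896 FPKM, and those with scramble shRNA were 2126, 2367 and 2465 FPKM. Here the ZRANB1 siRNA and scramble shRNA values overlapped and both lay above the other groups. The log2 difference was 0.64 ± 0.083 for ZRANB1 siRNA against scramble siRNA and -0.44 ± 0.083 for EZH2 shRNA against scramble shRNA (SE).

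FTH1, the ferritin heavy chain, ranked 32 and showed another pattern. Its values were 1531, 1608 and 1623 FPKM with ZRANB1 siRNA, against 906, 910.7 and 940.1 FPKM with scramble siRNA. With EZH2 shRNA it was listed at 1414, 1610.9 and 1619 FPKM, against 1943, 2049 and 2049 FPKM with scramble shRNA. The ZRANB1 siRNA values fell inside the EZH2 shRNA values apart from the highest, and their mean was 1.03 times the EZH2 shRNA mean, with a 95% interval of the log2 difference from -0.09 to 0.17. ZRANB1 siRNA against scramble siRNA had a ratio of 1.73 and a log2 difference of 0.79 ± 0.060 (SE), which was larger than that of any other member. Scramble siRNA stood at 0.456 times the scramble shRNA level.

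Both ferritin chains were therefore higher with ZRANB1 siRNA than with scramble siRNA. By means, the ratio of heavy to light chain was lower in both siRNA groups than in both shRNA groups. FTH1 over FTL, as a ratio of mean FPKM, was 0.674 with ZRANB1 siRNA and 0.608 with scramble siRNA, against 0.906 with EZH2 shRNA and 0.868 with scramble shRNA. Since values cannot be matched by library, the extremes that any pairing of values would allow are given instead of an SD. They ran from 0.618 to 0.747 with ZRANB1 siRNA and from 0.576 to 0.647 with scramble siRNA. With EZH2 shRNA they ran from 0.745 to 1.03, and with scramble shRNA from 0.788 to 0.964. The 2 siRNA groups stood below scramble shRNA without overlap, and the ZRANB1 siRNA and EZH2 shRNA extremes met at their edges. Ferritin genes have many processed copies in the genome, and how reads shared with them were assigned is not given in the sources used here; the listed copies FTH1P3, FTH1P18 and FTLP10 reached at most 1.26 FPKM in any value.

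**Figure D2:**
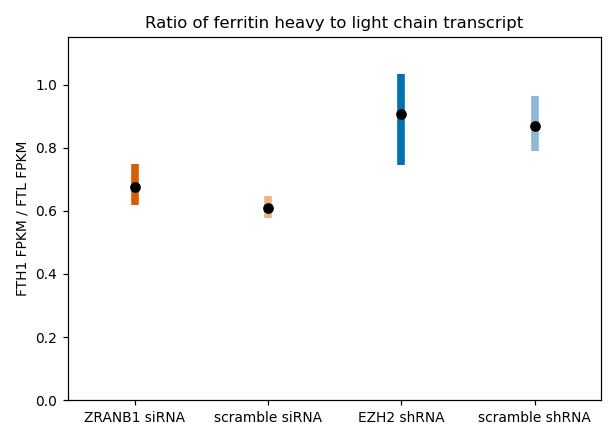
Ratio of FTH1 to FTL in FPKM (vertical axis, from 0) by group; dots are ratios of group means and bars span the lowest to highest ratio that any pairing of the 3 values allows. The siRNA groups have ratios of 0.674 and 0.608 and the shRNA groups 0.906 and 0.868.

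SQSTM1 encodes p62, an autophagy receptor that also binds KEAP1 and is itself an NRF2 target. Its values were 263, 290.1 and 294.8 FPKM with ZRANB1 siRNA, against 204.5, 213.8 and 222 FPKM with scramble siRNA. The EZH2 shRNA values of 137, 158 and 170.1 FPKM lay below those with scramble shRNA, at 179, 196 and 204.3 FPKM. SQSTM1 was the member for which ZRANB1 siRNA stood above all 3 other groups without overlap. The ratio of means was 1.32 against scramble siRNA and 1.82 against EZH2 shRNA, with log2 differences of 0.40 and 0.87 (SE 0.087 each).

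The cystine and glutathione genes differed mainly between the siRNA and shRNA groups or not at all. SLC7A11, the cystine carrier that supplies cysteine for glutathione, had values of 15.9, 18.1 and 22 FPKM with ZRANB1 siRNA and 18.7, 20.4 and 25.3 FPKM with scramble siRNA. It was at 10.1, 10.1 and 13.3 FPKM with EZH2 shRNA and at 8.59, 10.1 and 11.6 FPKM with scramble shRNA. Both siRNA groups lay above both shRNA groups, and within each delivery method the values overlapped. The antisense gene SLC7A11-AS1 reached at most 0.157 FPKM, and whether counting used strand is not given.

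GCLC, the catalytic subunit of glutamate-cysteine ligase, which makes the precursor of glutathione, kept to a narrow band from 7.30 to 9.79 FPKM over all 12 values, with means of 8.51 FPKM with ZRANB1 siRNA, 8.22 FPKM with scramble siRNA, 8.69 FPKM with EZH2 shRNA and 8.88 FPKM with scramble shRNA. Its log2 difference for ZRANB1 siRNA against scramble siRNA had a 95% interval from -0.18 to 0.27. GCLM encodes the modifier subunit of the same enzyme. Its values were 25.6, 29.5 and 33.0 FPKM with ZRANB1 siRNA and 23.5, 26.4 and 29.6 FPKM with scramble siRNA, and 21.5, 26.0 and 36.8 FPKM with EZH2 shRNA and 27.3, 31.2 and 31.9 FPKM with scramble shRNA. GCLM averaged 29.4 ± 3.67 FPKM with ZRANB1 siRNA and 26.5 ± 3.07 FPKM with scramble siRNA, and 28.1 ± 7.82 FPKM with EZH2 shRNA and 30.1 ± 2.49 FPKM with scramble shRNA (SD, n = 3 each). All 4 groups overlapped for both subunits. The GCLM interval, from -0.22 to 0.51 for ZRANB1 siRNA against scramble siRNA, still includes differences as large as that of SQSTM1.

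TXNRD1, the cytosolic reductase of thioredoxin, had values of 105, 110.3 and 118 FPKM with ZRANB1 siRNA, against 108, 110.6 and 115 FPKM with scramble siRNA. With EZH2 shRNA it was listed at 55.4, 78.1 and 89.3 FPKM, against 93.0, 101 and 102 FPKM with scramble shRNA. The EZH2 shRNA values were spread widely and all lay below the other groups. SRXN1, sulfiredoxin, which repairs over-oxidised peroxiredoxins, was among the tightest members. Its values were 24.7, 25.2 and 25.7 FPKM with ZRANB1 siRNA and 25.6, 25.8 and 26.8 FPKM with scramble siRNA. EZH2 shRNA had 19.8, 20.3 and 20.5 FPKM and scramble shRNA 18.0, 19.2 and 19.4 FPKM. SRXN1 was thus higher in both siRNA groups than in both shRNA groups, as SLC7A11 was.

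HMOX1, haem oxygenase 1, which frees iron from haem, had values of 12, 13.4 and 14.5 FPKM with ZRANB1 siRNA and 14.4, 15 and 15.4 FPKM with scramble siRNA. Those with EZH2 shRNA were 7.33, 9.37 and 11.5 FPKM, and those with scramble shRNA 9.28, 12.1 and 12.5 FPKM. ZRANB1 siRNA overlapped both scramble groups and stood above EZH2 shRNA. The log2 difference for ZRANB1 siRNA against scramble siRNA was -0.16, with a 95% interval from -0.47 to 0.16.

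Set side by side, the 10 members had a median log2 difference of 0.093 for ZRANB1 siRNA against scramble siRNA, beside -0.017 over all tested genes, and of -0.28 for EZH2 shRNA against scramble shRNA, beside -0.014. For ZRANB1 siRNA, 4 members were higher and 0 lower with no overlap of values, while 36.4% of all tested genes had no overlap. For EZH2 shRNA, 1 member (SRXN1) was higher and 5 were lower (NQO1, FTL, FTH1, SQSTM1 and TXNRD1), while 22.1% of all tested genes had no overlap. Between the controls, scramble siRNA was higher than scramble shRNA for 5 members (SQSTM1, HMOX1, TXNRD1, SRXN1 and SLC7A11) and lower for 3 (NQO1, FTL and FTH1), while 59.9% of all tested genes had no overlap. The comparisons of ZRANB1 siRNA against scramble siRNA and of scramble siRNA against scramble shRNA share the scramble siRNA libraries.

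**Figure D3:**
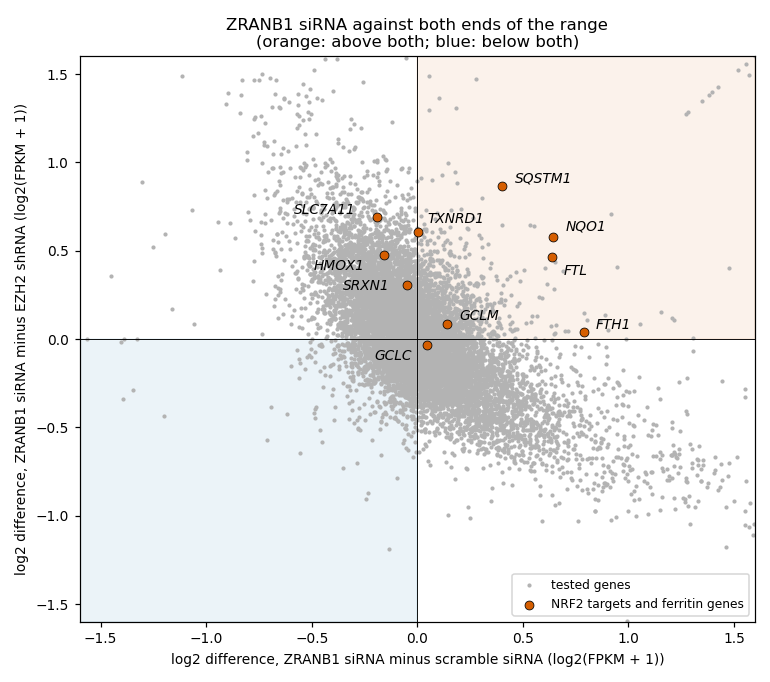
Log2 difference of ZRANB1 siRNA minus scramble siRNA (horizontal) against ZRANB1 siRNA minus EZH2 shRNA (vertical), on log2(FPKM + 1), for tested genes (grey) and the 10 members (orange); 217 of 11929 genes lie beyond the axes. NQO1, FTL and SQSTM1 lie well inside the upper right field, above both groups, FTH1 at 0.79 and 0.04 and TXNRD1 at 0.00 and 0.60 lie on its edges.

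The same question was put to 128 other genes of these pathways, of 151 listed, which were not among the members. By means, as for the members, 34 of them were above both other groups and 13 below, while 11.6% of all tested genes were above. By all 3 values, 5 were above and 1 below, while 0.662% of all tested genes were above. The 128 genes were also tested with limma in 1 fit of all 4 groups, a measure not used for the members. By limma, GSTO1, a glutathione transferase of the omega class, was the 1 gene called on the same side of both scramble siRNA and EZH2 shRNA. Of all tested genes, 0.218% (19 above and 7 below) were so called. GSTO1 was at 213 ± 4.25 FPKM with ZRANB1 siRNA, against 179 ± 5.69 FPKM with scramble siRNA and 171 ± 10.5 FPKM with EZH2 shRNA (SD, n = 3 each). Its adjusted p by limma was 0.0147 against scramble siRNA and 0.00267 against EZH2 shRNA. The comparison with EZH2 shRNA crosses delivery methods, so target and delivery cannot be told apart in it. The call against scramble siRNA was lost without 1 ZRANB1 siRNA value (adjusted p = 0.0545 by limma) and without 1 scramble siRNA value (adjusted p = 0.0621 by limma).

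With ZRANB1 siRNA, 22 of these 128 genes rose and 7 fell against scramble siRNA, around a median log2 fold change of 0.058, while 16.6% of all tested genes were called. Against EZH2 shRNA, ZRANB1 siRNA was higher for 24 and lower for 20, while 28.3% of all tested genes were called. With EZH2 shRNA, 2 rose and 10 fell against scramble shRNA, around a median of -0.10, while 6.41% of all tested genes were called. This last count is less firm, since it was 3 with the 6 compared values alone and 5 to 7 without 1 scramble shRNA value. Of the 12 genes, ABCC1, ABCC3 and LCN2 kept their call in every setting tried, and the other 9, all named below, lost it in at least 1. For ZRANB1 siRNA the calls of BACH1, FLVCR1, GSTO1 and SOD3 were likewise lost in at least 1 setting. Between controls, scramble siRNA was higher than scramble shRNA for 25 and lower for 37, while 50.6% of all tested genes were called. Here and below, rose and fell mean higher or lower than the scramble group of the same delivery, whose own level may differ from the other control. For the lists below, the shares of all tested genes to set beside the counts are 16.6% with ZRANB1 siRNA and 6.41% with EZH2 shRNA.

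The NRF2 factor and its inhibitor were not called. NFE2L2 averaged 31.1 ± 3.29 FPKM with ZRANB1 siRNA and 33.3 ± 3.76 FPKM with scramble siRNA, and 32.0 ± 6.07 FPKM with EZH2 shRNA and 40.2 ± 3.09 FPKM with scramble shRNA (SD, n = 3 each). KEAP1 averaged 46.9 ± 4.70 FPKM with ZRANB1 siRNA and 50.9 ± 7.01 FPKM with scramble siRNA, and 40.2 ± 2.96 FPKM with EZH2 shRNA and 46.0 ± 6.23 FPKM with scramble shRNA. Their adjusted p by limma ran from 0.175 to 0.695 in these comparisons. While 16.6% of all tested genes were called, 3 of 14 tested regulators rose and 0 fell with ZRANB1 siRNA. These were the small MAF genes MAFF, at 26.2 FPKM with ZRANB1 siRNA and 16.4 FPKM with scramble siRNA, MAFK, at 16.7 FPKM with ZRANB1 siRNA and 10.0 FPKM with scramble siRNA, and the repressor gene BACH1, at 11.3 FPKM with ZRANB1 siRNA and 8.22 FPKM with scramble siRNA. The BACH1 call, with an adjusted p of 0.0445 by limma, did not hold in 8 of the settings tried. With EZH2 shRNA, MAFK rose to 27.2 FPKM, against 18.4 FPKM with scramble shRNA, and GSK3B, a kinase that marks NRF2 for degradation, rose to 15.2 FPKM, against 11 FPKM. MAFF was at 38.9 FPKM with EZH2 shRNA and 35.9 FPKM with scramble shRNA, so scramble siRNA was the lowest group for both MAFF and MAFK.

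Among 14 tested quinone, carbonyl and drug metabolism genes, 4 rose and 0 fell with ZRANB1 siRNA, while 16.6% of all tested genes were called. AKR1B1, aldose reductase, rose to 155 ± 10.4 FPKM with ZRANB1 siRNA, against 62.3 ± 2.55 FPKM with scramble siRNA (SD, n = 3 each), which is 1.30 on the log2 scale (adjusted p = 1.19e-07 by limma). AKR1C1, AKR1C3 and TRIM16, an E3 ligase gene, rose by 1.24, 0.95 and 0.89 on the log2 scale, in that order. The scale understates AKR1C1, at 3.02 FPKM with ZRANB1 siRNA and 0.70 FPKM with scramble siRNA, a ratio of means of 4.32. AKR1C1 was at 4.77 FPKM with EZH2 shRNA and 6.55 FPKM with scramble shRNA. TRIM16 was at 10.9 FPKM with ZRANB1 siRNA, 5.39 FPKM with scramble siRNA, 12.1 FPKM with EZH2 shRNA and 13.7 FPKM with scramble shRNA. The AKR1C genes are near copies of each other, so their split of reads is uncertain. AKR1B1 stood at 239 FPKM with EZH2 shRNA and 288 FPKM with scramble shRNA, so that its ZRANB1 siRNA mean lay between those of scramble siRNA and EZH2 shRNA, while that of NQO1 lay above both. With EZH2 shRNA, 0 rose and 4 fell in this list, among them the epoxide hydrolase gene EPHX1, at 10.8 ± 1.5 FPKM against 17.7 ± 1.64 FPKM with scramble shRNA (adjusted p = 0.00564 by limma), and the fatty aldehyde dehydrogenase gene ALDH3A2, at 17.6 FPKM against 26.4 FPKM. The other 2 were AKR1B1, whose levels are given above, and AKR1C3, at 13.5 FPKM with EZH2 shRNA and 19.8 FPKM with scramble shRNA.

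Of 25 tested glutathione genes, 2 rose and 2 fell with ZRANB1 siRNA, around a median log2 fold change of -0.060, a share of calls near the 16.6% of all tested genes. Besides GSTO1, the exporter gene ABCC3 rose to 6.35 FPKM with ZRANB1 siRNA, against 2.81 FPKM with scramble siRNA (adjusted p = 2.83e-05 by limma). Glutathione reductase, GSR, fell to 11.1 FPKM with ZRANB1 siRNA, against 15.2 FPKM with scramble siRNA, and the transferase gene GSTA4 fell to 6.38 FPKM, against 10.0 FPKM. GSR was at 7.56 FPKM with EZH2 shRNA and 6.63 FPKM with scramble shRNA, and GSTA4 at 2.90 and 3.24 FPKM. Scramble siRNA was thus the highest group for both. With EZH2 shRNA, 0 rose and 2 fell, ABCC3 at 8.20 against 13.3 FPKM with scramble shRNA and ABCC1, another exporter of glutathione conjugates, at 13.7 against 20.3 FPKM.

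Of 16 thioredoxin and peroxide genes, 2 rose and 0 fell with ZRANB1 siRNA, while 16.6% of all tested genes were called. Mitochondrial superoxide dismutase, SOD2, rose to 71.5 ± 2.07 FPKM with ZRANB1 siRNA, against 35.2 ± 2.69 FPKM with scramble siRNA (SD, n = 3 each; adjusted p = 3.06e-06 by limma), and the extracellular form SOD3 rose to 9.35 FPKM, against 6.02 FPKM. The SOD3 call, with an adjusted p of 0.0406 by limma, did not hold in 9 of the settings tried. SOD2 was at 88.2 FPKM with EZH2 shRNA and 90.2 FPKM with scramble shRNA, and SOD3 at 13.6 and 14.4 FPKM. Scramble siRNA was thus the lowest group for both, and ZRANB1 siRNA lay below both shRNA groups. With EZH2 shRNA 1 gene fell, the peroxiredoxin gene PRDX1, to 384 FPKM, against 464 FPKM with scramble shRNA. Among NADPH supply genes, IDH1, the cytosolic isocitrate dehydrogenase, fell to 24.2 FPKM with ZRANB1 siRNA, against 33.3 FPKM with scramble siRNA. With EZH2 shRNA, PGD fell to 61.3 FPKM, against 75.8 FPKM with scramble shRNA. IDH1 was at 14.6 FPKM with EZH2 shRNA and 17.2 FPKM with scramble shRNA.

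Iron genes other than ferritin had 4 higher and 2 lower of 21 tested with ZRANB1 siRNA, while 16.6% of all tested genes were called. TFRC, the transferrin receptor, was not called, at 138 ± 12.6 FPKM with ZRANB1 siRNA and 111 ± 9.61 FPKM with scramble siRNA (SD, n = 3 each; adjusted p = 0.0849 by limma). The mitochondrial iron importer gene SLC25A37 rose to 61.3 FPKM, against 32.3 FPKM with scramble siRNA, and FBXL5, the iron-sensing ligase subunit that removes iron regulatory protein 2, rose to 10.2 FPKM, against 5.84 FPKM. ISCU, the scaffold of iron-sulphur cluster assembly, fell to 66.6 FPKM with ZRANB1 siRNA, against 91.4 FPKM with scramble siRNA. LCN2, which binds iron-carrying siderophores, was listed at 0.918, 1.14 and 1.28 FPKM with ZRANB1 siRNA, against 0, 0 and 0.226 FPKM with scramble siRNA. With EZH2 shRNA LCN2 was the 1 gene of this list that was called, at 2.09 FPKM against 6.67 FPKM with scramble shRNA (adjusted p = 0.000153 by limma).

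Haem genes had 1 higher and 2 lower of 15 with ZRANB1 siRNA, a share of calls near the 16.6% of all tested genes. CPOX, an enzyme of haem synthesis, rose to 33.5 FPKM with ZRANB1 siRNA, against 18.5 FPKM with scramble siRNA (adjusted p = 0.000413 by limma), and the haem transporter gene SLC48A1 fell to 6.62 FPKM, against 9.43 FPKM. The haem exporter gene FLVCR1 fell to 4.75 FPKM with ZRANB1 siRNA, against 6.2 FPKM with scramble siRNA. The FLVCR1 call did not hold in 14 of the settings tried. CPOX was at 54.0 FPKM with EZH2 shRNA and 44.7 FPKM with scramble shRNA, and SLC48A1 at 3.65 and 3.78 FPKM. With EZH2 shRNA, the haem-binding protein gene HEBP1 fell to 40.4 FPKM, against 51.2 FPKM with scramble shRNA. Autophagy receptors and their partners, the relatives of SQSTM1, had 5 higher and 0 lower of 13 with ZRANB1 siRNA, beside 16.6% of all tested genes called. By limma, 0 of this list were called with EZH2 shRNA, where 3 of 13 had an unadjusted p below 0.05. OPTN, another autophagy receptor, rose to 32.0 ± 1.29 FPKM with ZRANB1 siRNA, against 18.4 ± 0.538 FPKM with scramble siRNA (SD, n = 3 each; adjusted p = 3.83e-06 by limma). GABARAPL1, which couples receptors to the autophagosome, rose to 13.5 FPKM, against 7.75 FPKM, and TFE3, a transcription factor of lysosomal genes, to 32.9 FPKM, against 21.1 FPKM. LAMP2, a lysosomal membrane protein gene, rose to 40.8 FPKM with ZRANB1 siRNA, against 24.5 FPKM with scramble siRNA. OPTN was at 45.2 FPKM with EZH2 shRNA, so that ZRANB1 siRNA lay below it, whereas SQSTM1 lay above.

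**Figure D4:**
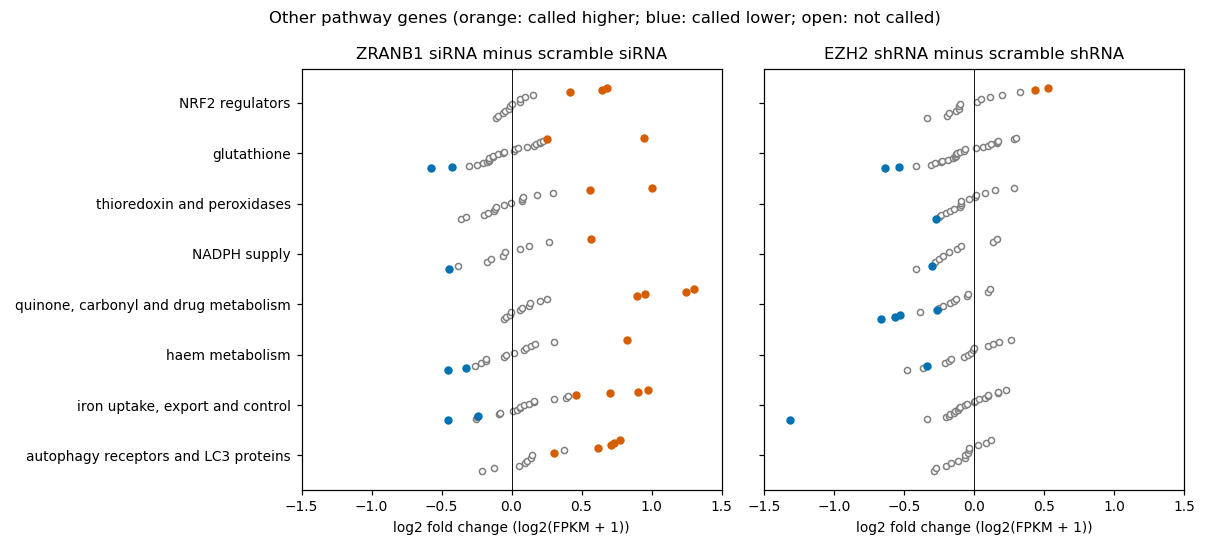
Log2 fold changes on log2(FPKM + 1) (horizontal axes) of the 128 tested pathway genes other than the members, by list, for ZRANB1 siRNA minus scramble siRNA (left) and EZH2 shRNA minus scramble shRNA (right); filled points were called by limma and open points were not. On the left 22 genes are higher and 7 lower, on the right 2 are higher and 10 lower.

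Genes with the most similar profile over the 4 group means were found by the root mean square difference of centred log2(FPKM + 1) values, which compresses low genes. Nearest to NQO1 was GFPT2, of hexosamine synthesis, at a difference of 0.0998, with 82.8 FPKM with ZRANB1 siRNA, 61.4 FPKM with scramble siRNA, 65.4 FPKM with EZH2 shRNA and 111 FPKM with scramble shRNA. UBE2L6, an ISG15-conjugating enzyme, and PANX2 followed at 0.114 and 0.148. Nearest to FTH1 were the low transcripts LOC100506385, IL24 and PINLYP, at 0.0344 to 0.0734, none above 5.75 FPKM in any group mean. Nearest to HMOX1 were ABCF2, GEMIN8P4 and ARVCF, at differences of 0.00726 to 0.00853.

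Markers of macrophages, which hold much ferritin and haem oxygenase, and of fibroblasts were also read. Of 8 macrophage markers, 1 or 2 reached 1 FPKM in a group, and PTPRC and CD163 were at most 0.0210 and 0.0125 FPKM in any group mean. CD68, which is not limited to macrophages, was at 41.7 FPKM with ZRANB1 siRNA, 40.2 FPKM with scramble siRNA, 35.6 FPKM with EZH2 shRNA and 34.4 FPKM with scramble shRNA. CD14 moved with the groups, at 0.867, 0.243, 2.87 and 3.90 FPKM in the same order, and the fibroblast marker COL1A1 likewise, at 17.0, 8.14, 19.3 and 24.6 FPKM, while DCN and LUM were at most 0.352 FPKM. Of 5 fibroblast markers, 1 reached 1 FPKM in each group. Their sums ran from 16.5 to 19.95 FPKM with ZRANB1 siRNA and from 8.15 to 9.55 FPKM with scramble siRNA, and from 18.6 to 21.2 FPKM with EZH2 shRNA and from 21.6 to 27.6 FPKM with scramble shRNA, taken over the sorted columns. On the same basis, the 8 macrophage markers ran from 41.4 to 45.5 FPKM with ZRANB1 siRNA and from 39.0 to 43.0 FPKM with scramble siRNA, and from 34.7 to 43.0 FPKM with EZH2 shRNA and from 36.8 to 42.0 FPKM with scramble shRNA. By group mean, COL1A1 and CD14 were lowest with scramble siRNA, as NQO1, FTL and FTH1 were, although NQO1 and FTL values overlapped those with EZH2 shRNA. COL1A2, DCN, LUM, CSF1R and LYZ were also lowest with scramble siRNA, each below 1 FPKM in every group mean. Other markers of these lists went another way. PDGFRB was highest with scramble siRNA, at 0.686 FPKM, CD68 was lowest with scramble shRNA, and PTPRC and SLC11A1 were lowest with EZH2 shRNA. The part of these markers in the levels of the 10 genes was not tested.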

How the data were processed

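RNA of LM2 cells was sequenced in 12 libraries, grouped by their labels into 4 groups of 3. The authors deposited 1 table of FPKM values (fragments per kilobase of transcript, scaled to mapped fragments). The tools named per the submitters' processing notes are TopHat2 (2.1.1), Cufflinks and Cuffdiff (both 2.2.1) and SAMtools, with build hg19; no source used here states the annotation, the strand setting or the scaling. FPKM is relative to the library total, so abundant transcripts lower all others. For 440 symbols with several rows the highest by mean stayed (none was a member), and 27 rows with date-like symbols stayed separate. No column belonged to another sample.

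Tests covered genes averaging 1 FPKM or more, as log2(FPKM + 1), with limma 3.58.1 in R 4.3.3: 1 mean per group, all 4 groups, trended prior, Benjamini-Hochberg adjustment over all 11929 genes, called at an adjusted p below 0.05. Differences on this scale understate changes of low genes. With 3 values per group, precision is limited. The limma calls of ZRANB1 siRNA against scramble siRNA and of EZH2 shRNA against scramble shRNA were checked on generated data with known answers. Figures used matplotlib 3.10.9.

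Members and pathway lists were chosen with earlier results of these data known. Named pathway genes were, per list, up to 4 called for ZRANB1 siRNA and up to 2 for EZH2 shRNA by smallest adjusted p, genes called outside the range, and NFE2L2, KEAP1, BACH1 and TFRC; 3 nearest profiles were named for NQO1, FTH1 and HMOX1. A gene that this rule names is not reported here. Other settings tried were a pseudocount of 0.1, a filter at 5 FPKM or none, compared groups alone, no variance trend, 1 scaling factor per group, group medians, and the removal of single values, which were first put in random order within each gene and group.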

Additional observations from a re-analysis of the deposited data

How the results depend on the processing

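FTH1 kept a ZRANB1 siRNA mean above both scramble siRNA and EZH2 shRNA in 8 of 9 leave-outs of 1 value, and GCLM and TXNRD1 in 7. For NQO1, FTL and SQSTM1 it was 9 of 9. That outcome was fixed beforehand, because all their ZRANB1 siRNA values lay above all values of both other groups. The count of members outside the range was 6 by means, 6 after group scaling, 5 by medians and 3 when all values had to lie outside. Scaling factors per group ran from 0.990 to 1.01. For EZH2 shRNA against scramble shRNA, 765 genes were called; the count was 503 with a filter at 5 FPKM, 185 with the compared groups alone and 405 to 677 with 1 value left out. Pathway genes called there were 12, and 3 with the compared groups alone and 5 to 13 with 1 value left out. For ZRANB1 siRNA against EZH2 shRNA, 2238 genes in place of 3380 were called with the compared groups alone. Genes called outside the range were 26, and 16 to 28 with 1 value left out; pathway genes so called were 1, and 0 to 1. The compared groups alone give fewer residual degrees of freedom in each comparison. With that setting the all-gene count was 1850 in place of 1985 for ZRANB1 siRNA against scramble siRNA. It was 6137 in place of 6036 for scramble siRNA against scramble shRNA. The cause of the moves was not tested. For ZRANB1 siRNA against scramble siRNA, all-gene counts ran from 1380 to 2094 and pathway counts from 23 to 33 over the settings tried. Of 26 named pathway genes called for ZRANB1 siRNA, 5 lost the call in at least 1 setting, and of 12 for EZH2 shRNA, 9 did (AKR1B1, AKR1C3, ALDH3A2, EPHX1, GSK3B, HEBP1, MAFK, PGD and PRDX1). In no setting tried did a named pathway gene that was called change direction. No paired analysis was possible because the columns, ordered as text within each row, do not follow a library, so the replicate numbers pair nothing. Depth is unknown, so low levels such as that of LCN2 carry no counting error here.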
